A study of Mus musculus with 12 samples.

Results

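The interferon response gene families are a set of 54 mouse genes among the 24432 in the deposited table, chosen by their symbols alone. They comprise the IFIT genes (6), the IFITM genes (7), the OAS and OASL genes (12), the guanylate binding proteins (8 GBP genes), the interferon regulatory factors (9 IRF genes), Isg15 and Isg20, the STAT genes (7), Mx1 and Mx2, and Rsad2. RNA was sequenced in bulk from 4 groups of 3 libraries. Primary tumors were dissected from the kidneys of Slc34a1CreERT2;Lats1/2flox/flox mice 4 months after tamoxifen, which had been given as 3 injections at 1 month of age. In these mice a tamoxifen-activated Cre recombinase is driven by Slc34a1, which encodes a phosphate transporter of tubule epithelium, and removes Lats1 and Lats2, the kinases of the Hippo pathway. Lung metastases came from mice of the same genotype, treatment and time. Allograft tumors were Lats1-/-;Lats2-/- cells injected beneath the kidney capsule of NOD/scid hosts aged 6 to 8 weeks and collected 6 weeks later. The hosts lack functional T and B cells, and the sources used here give neither the number of source clones nor the tissue of origin of the cells. Proximal tubule cells, the common comparator, were sorted from adult Slc34a1CreERT2;Lats1c/c;Lats2c/+;RosaTomato mice. Their description calls them wild type, but they too carry the Cre and conditional Lats alleles, and the sources used here do not say whether they had been given tamoxifen or had recombined. The strain background was mixed in the tumor-bearing and tubule donor mice and in the grafted cells, and the hosts were NOD/scid. The tumors were dissected pieces and the comparator was a sorted cell type, so each tumor against tubule comparison also sets tissue pieces against sorted cells.

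Interferons are secreted proteins that act through paired receptors, JAK kinases and STAT transcription factors. Type I and III interferons act mainly through a complex of STAT proteins with Irf9, which binds the interferon-stimulated response element (ISRE), and interferon gamma acts mainly through STAT dimers, which bind the gamma-activated site (GAS). The induced genes include binders of foreign RNA (IFIT), membrane proteins that hinder viral entry (IFITM), double-stranded RNA sensors that make 2'-5' oligoadenylates (OAS), GTPases that attack intracellular pathogens (GBP, MX), a ubiquitin-like modifier (Isg15) and the radical SAM enzyme viperin (Rsad2). In kidney, tubular epithelium, macrophages, endothelium and lymphocytes can all express such genes, and several are also set by signals other than interferon.

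Levels are FPKM, fragments scaled by transcript length and library total, and every change is a log2 difference of FPKM + 1 from 3 libraries on each side. Its standard error (±) comes from limma's fit of all 12 libraries, with an estimate of spread per gene shared by the 4 groups. It is therefore not the spread of the groups compared, which could differ widely. Isg15 had an SD of 38.9 FPKM in primary tumors and 0.763 in allograft tumors. A gene was tested when it reached 1 FPKM in at least 3 libraries, and it is said to be higher, lower, to rise or to fall only where limma's test gave an adjusted p under 0.05 over all 16313 tested genes. Nowhere do the labels tie the 3 libraries of a group to different animals, and the p-values therefore speak only for the spread among these libraries, part of which may be technical. Estimated depths were 12.5 to 20.2 M fragments (M, mega) in the tumor libraries and 5.28 to 6.77 M in the proximal tubule libraries. At these depths a single fragment on a 2 kb transcript adds 0.0247 to 0.0399 FPKM in the tumor libraries and 0.0739 to 0.0947 FPKM in the proximal tubule libraries. The targeted genes were still read in every group, with Lats1 at 12.3 to 14.7 FPKM in primary tumors, 9.54 to 10.7 FPKM in metastases, 5.603 to 7.82 FPKM in allograft tumors and 11.9 to 12.8 FPKM in proximal tubule cells. Lats2 had 12.97 to 21.4 FPKM in primary tumors, 19.9 to 22.5 FPKM in metastases, 12.2 to 17.1 FPKM in allograft tumors and 10.5 to 10.96 FPKM in proximal tubule cells. Values for whole genes do not resolve the floxed exons, so they check neither deletion.

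The libraries also differed in their cells. The 11 macrophage and myeloid markers, such as Adgre1, Csf1r and C1qa, summed to 423 to 2915 FPKM in primary tumors, 5172 to 5751 in metastases and 1769.8 to 6706 in allograft tumors, against 8.68 to 8.92 in proximal tubule cells, and all 11 were higher in each tumor group than in the sorted cells. The 10 T and NK cell markers summed to 46.97 to 67.9 FPKM in primary tumors, 43.6 to 69.6 in metastases and 14.6 to 22.9 in allograft tumors, against 0.648 to 2.75 in proximal tubule cells, where Cd3g, Ncr1, Nkg7 and Klrb1c were listed at 0. The 7 B and plasma cell markers summed to 123.2 to 454 FPKM in primary tumors, 133 to 239.9 in metastases and 10.01 to 59.6 in allograft tumors, against 0.346 to 1.03 in proximal tubule cells, where Cd79b, Ms4a1 and Ighm were listed at 0. The 8 proximal tubule markers summed to 136, 5187 and 1296 FPKM in primary tumors 1, 2 and 3, 31.98 to 41.4 in metastases and 10.7 to 32.1 in allograft tumors, against 5623 to 6872 in the sorted cells, whose label they fitted. Primary tumor 2 thus came close to the sorted cells in these markers, which touches each comparison with primary tumors. The 6 lung epithelium markers reached 12029 to 19132 FPKM in metastases, 79.6 to 868 in primary tumors and 5.17 to 12.2 in allograft tumors, against 308 to 589.5 in proximal tubule cells, where Sftpc, Sftpb, Sftpa1 and Scgb1a1 were listed at 0. The tubule sum thus came from Ager and Napsa alone and does not show lung cells. The sums of primary tumors 1, 2 and 3, 79.6, 868 and 427 FPKM, ranked as their proximal tubule markers did. In bulk RNA, fewer cells of a type and less RNA per cell cannot be told apart. The part of these cells in the results on interferon genes was not tested. Sex differed too. Xist, expressed from the inactive X chromosome of females, was at 87.9 to 96.9 FPKM in metastases and 141 to 183 in tubule cells. The Y-linked Ddx3y was at 0.26 FPKM or less in both. Primary tumors 2 and 3 had Xist at 0.323 and 0.374 FPKM and Ddx3y at 29.98 and 20.5, and allograft tumors read both genes. Comparisons with primary tumors are therefore not matched for sex. Those of allograft tumors with metastases or tubule cells are not matched either, since Ddx3y was at 8.94 to 22.8 FPKM in allograft tumors. The part of sex was not tested.

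Most of the interferon genes were lowest in the sorted tubule cells and highest in the metastases. Of the 54 genes, 49 passed the filter. Oas1d, Oas1e, Oas1f and Oas1h, with a maximum of 0.50 FPKM, and Gbp11, annotated as a polymorphic pseudogene, with a maximum of 0.817 FPKM, did not. Mx2 and Oas1b, which passed, are annotated as polymorphic pseudogenes too. The 3 metastases averaged above the other groups in 35 of the 49, where 22.2% of all tested genes had their highest mean. The proximal tubule cells averaged lowest in 44 of the 49, where 65% of all tested genes had their lowest mean. By limma's moderated F test 47 of the 49 differed among the 4 groups, all but Oas3 and Stat5a, beside 79.5% of all tested genes. The median level of the 49 was 4.59, 3.04 and 3.47 on the log2(FPKM + 1) scale in primary tumors, 3.94, 4.38 and 4.30 in metastases and 3.30, 3.38 and 3.13 in allograft tumors, against 1.47, 1.38 and 1.27 in proximal tubule cells. Every tumor library thus lay above every tubule library, while the median over all tested genes ranged only from 3.37 to 3.54 in tumors, against 2.75 to 2.80 in tubule cells.

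**Figure D1:**
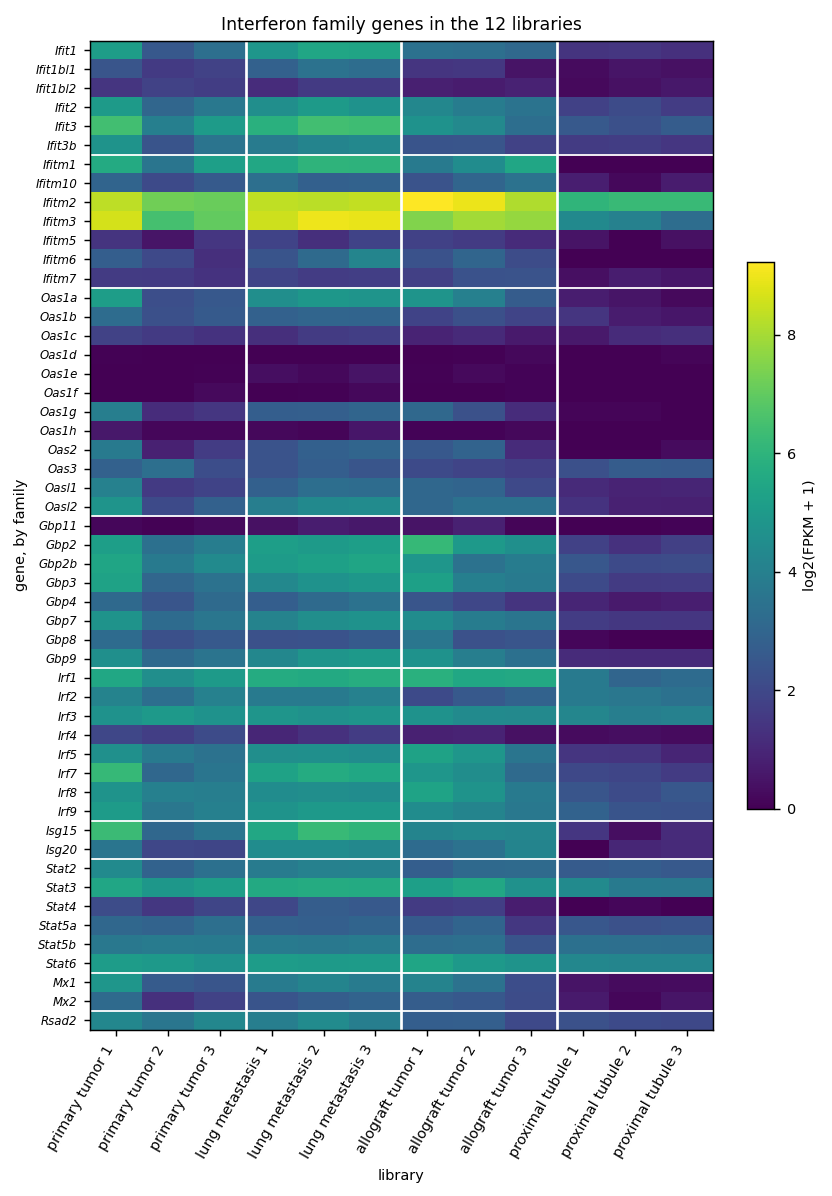
Heat map of 52 interferon family genes (rows, by family) in the 12 libraries (columns), coloured by log2(FPKM + 1) as on the scale bar. The 3 proximal tubule columns on the right are darkest for most rows, and primary tumor 1 and the metastases are brightest.

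In primary tumors against proximal tubule cells, 45 of the 49 genes were higher and none was lower, where 48.2% of all tested genes were higher and 4.9% were lower. Their median change was 1.90, against 0.59 for all tested genes. In metastases against proximal tubule cells, 44 were higher and 1 was lower, where 54% of all genes were higher and 14.4% were lower, with a median change of 2.36 against 0.68 for all genes. In allograft tumors against proximal tubule cells, 38 were higher and 2, Irf2 among them, were lower, where 52.2% of all genes were higher and 16.9% were lower, with a median change of 1.83 against 0.66 for all genes. Every primary tumor lay above every tubule library for 47 of the 49 genes and below for none, as for 56.7% and 5.52% of all genes. Without overlap, 46 were higher and 1 lower in metastases, beside 62.7% and 20.7% of all genes, and 41 were higher and 3 lower in allograft tumors, beside 55.9% and 19.7%. These comparisons share the 3 tubule libraries. Levels relative to the tubule libraries depended on the scaling, since the deposited values of all genes sat lower there: 4 other scalings put the all-gene median change between -0.29 and 0.30 for primary tumors. Relative to the all-gene median, the interferon genes' median change was 1.31 for primary tumors as deposited and 1.27 to 1.40 under those scalings, 1.68 and 1.74 to 1.87 for metastases, and 1.17 and 0.97 to 1.18 for allograft tumors. The counts fell further: rescaling to TPM left 27 higher and 0 lower in primary tumors, 39 higher and 2 lower in metastases, and 21 higher and 8 lower in allograft tumors, where it put 18.6%, 27.7% and 21.5% of all genes higher and 33.1%, 35.7% and 42.3% lower in the same 3 comparisons. All 4 scalings kept 13 of the 45 calls of primary tumors, 34 of the 45 of metastases and 20 of the 40 of allograft tumors. Calls in either direction as deposited took in 53.1%, 68.4% and 69.1% of all genes. How many of those all 4 scalings kept was not computed, so these kept counts have no background. The 13 were Ifit3, Ifitm1, Ifitm3, Gbp2, Gbp2b, Gbp4, Gbp7, Gbp8, Gbp9, Irf5, Isg15, Stat4 and Rsad2.

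**Figure D2:**
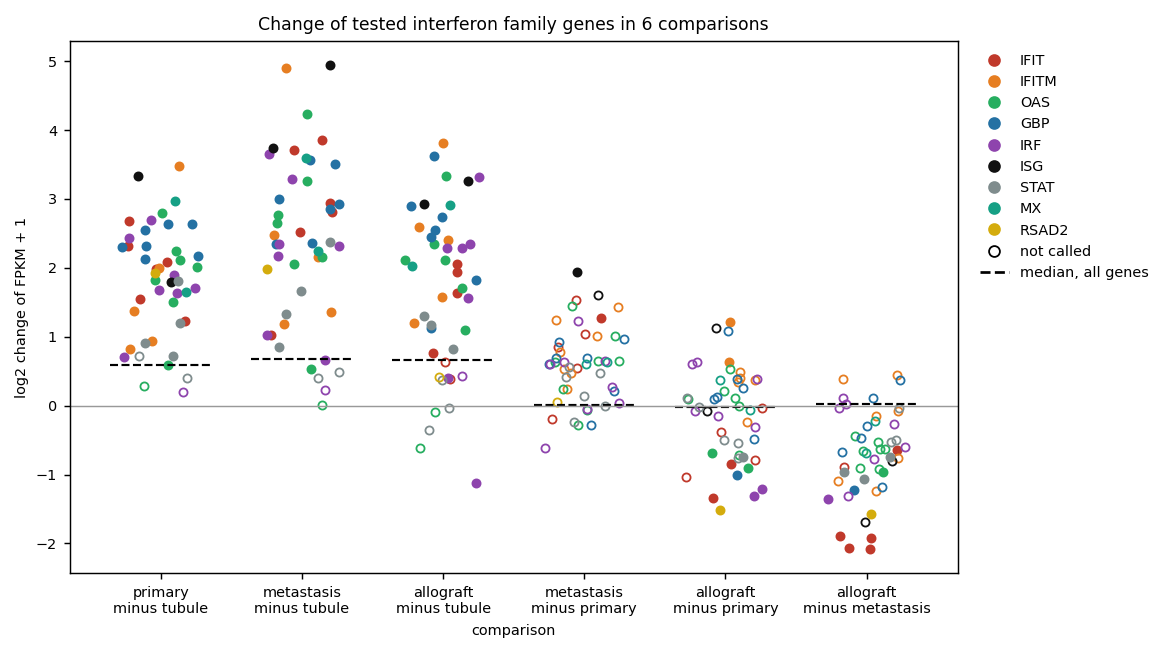
Log2 change of FPKM + 1 (vertical axis) of 47 tested interferon family genes in the 6 comparisons, coloured by family; filled points passed limma's test, open points did not, and dashed lines are the median over all tested genes. Ifitm1 and Ifitm6 are left out of the comparisons with tubule cells, where they were listed at 0. Most points lie above the dashed line in the 3 tubule comparisons and below it in allograft tumors against metastases.

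Promoter sequence was set beside these levels because most genes of several families were called in the same direction against tubule cells. RefSeq windows on GRCm38.p6, from 250 bases before to 50 after the annotated start site, were found for 42 of the 54 genes. The ISRE core searched was GAAA, any 2 bases and GAAA again, on both strands (where it reads TTTC, any 2 bases and TTTC) and allowing overlaps. It was present in 20 of the 42 genes (47.6%), against 3.99% of 27025 genes with a window. The GAS core TTCNNNGAA, searched on both strands, was present in 9 of the 42 (21.4%), against 9.55% of all genes. ISRE matches fell in 5 of 6 IFIT genes, in 4 of 4 GBP genes with a window, in 4 of 8 OAS genes with a window, in 2 of 7 IFITM genes and in 1 of 8 IRF genes with a window. A match describes letters in this window and does not show binding. The stretches below, with every ISRE core match in capitals and all read 5′ to 3′ along the gene's strand, are shown for genes the results turn on. Isg15 is given for its 3 overlapping matches, Ifit3 and Ifit3b because their stretches are identical over 74 bases, Ifit1 and Ifit1bl2 because they are transcribed away from each other from the same stretch, Oas1a and Oas1g as neighbouring copies, and Gbp2, Gbp2b, Rsad2 and Stat2 for comparison between families.
Isg15, chr4:156200860-156200911 (- strand): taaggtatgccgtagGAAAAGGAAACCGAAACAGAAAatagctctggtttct
Ifit3, chr19:34583358-34583431 (+ strand): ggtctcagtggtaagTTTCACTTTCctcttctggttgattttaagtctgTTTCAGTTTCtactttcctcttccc
Ifit3b, chr19:34607754-34607827 (+ strand): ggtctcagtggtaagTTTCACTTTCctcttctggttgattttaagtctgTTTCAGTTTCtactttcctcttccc
Ifit1, chr19:34640770-34640828 (+ strand): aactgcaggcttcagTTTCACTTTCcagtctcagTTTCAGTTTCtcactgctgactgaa
Ifit1bl2, chr19:34640770-34640828 (- strand): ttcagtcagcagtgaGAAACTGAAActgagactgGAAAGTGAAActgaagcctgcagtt
Oas1a, chr5:120907526-120907560 (- strand): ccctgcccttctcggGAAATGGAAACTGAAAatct
Oas1g, chr5:120887614-120887646 (- strand): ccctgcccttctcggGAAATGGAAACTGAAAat
Gbp2, chr3:142620589-142620628 (+ strand): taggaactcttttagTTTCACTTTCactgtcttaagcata
Gbp2b, chr3:142594695-142594734 (+ strand): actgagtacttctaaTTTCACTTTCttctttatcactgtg
Rsad2, chr12:26456548-26456587 (- strand): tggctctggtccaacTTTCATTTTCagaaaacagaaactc
Stat2, chr10:128270261-128270300 (+ strand): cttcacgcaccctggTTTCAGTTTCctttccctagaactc

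**Figure D3:**
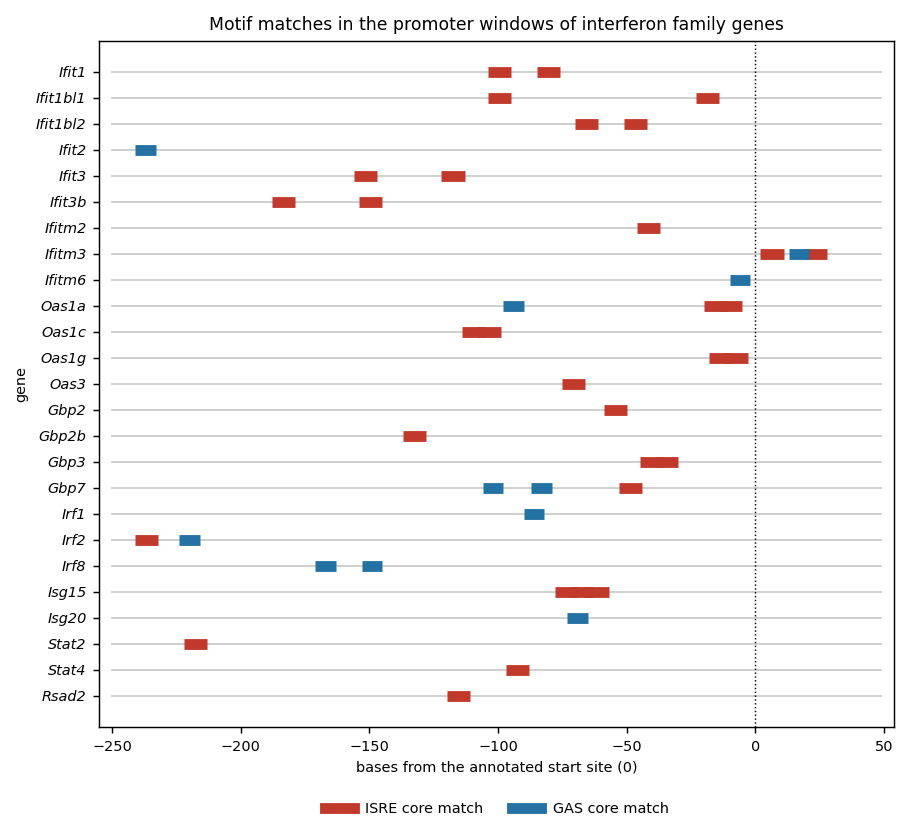
Positions of ISRE core matches (red) and GAS core matches (blue) in the promoter windows of the interferon family genes that held at least 1, in bases from the annotated start site (0, dotted line). Most ISRE matches lie close before the start site, those of Ifitm3 lie after it, and Irf1, Irf8, Isg20, Ifit2 and Ifitm6 show a GAS match and no ISRE match.

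Among the IFIT genes, whose proteins bind RNA that lacks host cap marks, all 6 were higher in primary tumors and all 6 in metastases than in tubule cells, although Ifit1bl2 changed sign under quantile normalization in both. In allograft tumors 4 of the 6 were higher, of which Ifit1bl1 turned negative under quantile normalization. Of all tested genes 48.2%, 54% and 52.2% were higher in the same comparisons, so the allograft count is near the background. Ifit3 had 86.3, 14.9 and 32.9 FPKM in primary tumors, 57.2, 85.1 and 80.8 in metastases and 24.9, 19.4 and 9.17 in allograft tumors, against 4.905, 3.77 and 5.41 in proximal tubule cells. All 9 tumor libraries lay above the tubule libraries, and allograft tumor 3 and primary tumor 2 were the lowest tumors. The change of Ifit3, which bridges RNA sensing and signalling, was 2.67 ± 0.54 in primary tumors (adjusted p = 0.00215), 3.72 ± 0.54 in metastases (adjusted p = 0.000156) and 1.63 ± 0.54 in allograft tumors (adjusted p = 0.0189). The allograft call was lost under each of the 4 other scalings and without allograft tumor 1, allograft tumor 2 or tubule library 2. Ifit1 had 34.1, 4.89 and 9.45 FPKM in primary tumors, 27.7, 43.4 and 40.6 in metastases and 9.84, 9.38 and 7.75 in allograft tumors, against 1.63, 1.76 and 1.41 in proximal tubule cells. Ifit1, which binds cap-deficient RNA, changed by 2.32 ± 0.50, 3.86 ± 0.50 and 1.94 ± 0.50 in primary tumors, metastases and allograft tumors. Ifit2 followed the same order of group means, with 7.23 to 31.5 FPKM in primary tumors, 22.9 to 32.1 in metastases and 10.5 to 18.4 in allograft tumors, against 2.14 to 3.29 in tubule cells. Ifit3b had 25.5, 4.29 and 10.7 FPKM in primary tumors, 13.3, 16.9 and 18.9 in metastases and 4.33, 4.38 and 2.49 in allograft tumors, against 2.01, 2.22 and 1.76 in proximal tubule cells. Ifit1bl1 had 4.399, 1.96 and 2.52 FPKM in primary tumors, 6.22, 10.1 and 8.83 in metastases and 1.7, 1.85 and 0.416 in allograft tumors, against 0.193, 0.429 and 0.323 in proximal tubule cells. Ifit3b is a near copy of Ifit3, and Ifit1bl1 and Ifit1bl2 are close relatives of Ifit1, so fragments may have been divided between them and their separate levels are uncertain.

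Isg15, a ubiquitin-like protein that is joined to other proteins after interferon treatment, had one of the largest changes in the set. Isg15 had 76.5, 7.46 and 11.02 FPKM in primary tumors, 45.01, 72.7 and 65.4 in metastases and 17.2, 18.7 and 17.8 in allograft tumors, against 1.77, 0.274 and 1.19 in proximal tubule cells. No tumor library overlapped the tubule cells, and primary tumors 2 and 3 lay below every other tumor library. The change was 3.33 ± 0.67 in primary tumors (adjusted p = 0.0022), 4.95 ± 0.67 in metastases (adjusted p = 0.000106) and 3.26 ± 0.67 in allograft tumors (adjusted p = 0.00137), and each call held under all 4 scalings. Its promoter stretch above held more ISRE core matches than that of any other gene of the set. Isg20 had 11.1, 2.91 and 2.79 FPKM in primary tumors, 21.6, 21.7 and 18.8 in metastases and 8.36, 10.3 and 16.7 in allograft tumors, against 0, 0.981 and 1.16 in proximal tubule cells. Isg20, a 3′ to 5′ exonuclease, was the gene in which metastases stood furthest above primary tumors, with no overlap between them. Its change against tubule cells was 1.80 ± 0.46 in primary tumors, 3.73 ± 0.46 in metastases and 2.93 ± 0.46 in allograft tumors.

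The OAS family is named for enzymes whose 2'-5' oligoadenylates switch on the nuclease RNase L, and the activity of its members was not measured. Of its 12 genes, 8 were tested. In primary tumors 7 were higher, in metastases 7 and in allograft tumors 6, beside 48.2%, 54% and 52.2% of all genes. Oas1c changed sign under rescaling to TPM and quantile normalization in the first 2 comparisons. Oas1a had 34.3, 3.64 and 4.76 FPKM in primary tumors, 22.4, 28.8 and 26.2 in metastases and 26.2, 15.4 and 5.41 in allograft tumors, against 0.664, 0.427 and 0.185 in proximal tubule cells. Primary tumor 1 was the highest of all 12 libraries and primary tumors 2 and 3 were the lowest tumors. Its change was 2.80 ± 0.71 in primary tumors, 4.24 ± 0.71 in metastases and 3.33 ± 0.71 in allograft tumors. The neighbouring copy Oas1g, whose promoter stretch carries the same overlapping pair of ISRE cores, ran at lower levels (1.27 to 14.6 FPKM in primary tumors, 5.84 to 7.05 in metastases, 1.27 to 7.74 in allograft tumors, against 0 to 0.103 in tubule cells), and reads may be shared between the copies. Oasl2 had 26.7, 3.22 and 6.25 FPKM in primary tumors, 14.6, 19.8 and 20.7 in metastases and 7.53, 9.95 and 9.98 in allograft tumors, against 1.53, 0.785 and 0.744 in proximal tubule cells. Oasl2, a relative that keeps OAS-like domains joined to ubiquitin-like ones, changed by 2.25 ± 0.54 in primary tumors, 3.27 ± 0.54 in metastases and 2.34 ± 0.54 in allograft tumors. Oas3 was the exception, with 3.55 to 9.36 FPKM in primary tumors, 4.18 to 5.73 in metastases and 2.29 to 3.24 in allograft tumors, against 3.803 to 5.44 in tubule cells, where primary tumors and metastases overlapped the tubule cells, allograft tumors lay just below them, and no tumor against tubule comparison was called. Oas3 nonetheless has an ISRE core match in its window.

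Mx1 and Mx2, of a family of dynamin-like GTPases that block viruses, and Rsad2 were at 3.89 FPKM or less in every tubule library. Mx2 is annotated as a polymorphic pseudogene. Mx1 had 27.9, 5.28 and 4.45 FPKM in primary tumors, 13.4, 16.9 and 13.4 in metastases and 16.4, 10.2 and 3.505 in allograft tumors, against 0.410, 0.204 and 0.227 in proximal tubule cells. No tumor library came near the tubule libraries, and the change of Mx1 was 2.96 ± 0.61 in primary tumors, 3.60 ± 0.61 in metastases and 2.91 ± 0.61 in allograft tumors. Mx2 had 8.19, 1.45 and 2.49 FPKM in primary tumors, 4.31, 5.63 and 6.73 in metastases and 5.54, 4.83 and 3.48 in allograft tumors, against 0.590, 0.130 and 0.424 in proximal tubule cells. Mx2 changed by 1.65 ± 0.41, 2.24 ± 0.41 and 2.02 ± 0.41 in the same order, and quantile normalization ended all 3 calls. Rsad2 had 18.3, 11.4 and 18.3 FPKM in primary tumors, 14.3, 20.97 and 14.4 in metastases and 5.82, 5.99 and 3.14 in allograft tumors, against 3.89, 3.25 and 3.01 in proximal tubule cells. Rsad2 differed from the MX genes in that primary tumor 2 stayed high and the allograft tumors sat near the tubule cells. It rose by 1.93 ± 0.26 in primary tumors (adjusted p = 0.00022) and 1.99 ± 0.26 in metastases (adjusted p = 8.34e-05), and its change in allograft tumors, 0.42 ± 0.26, was not called (adjusted p = 0.175).

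The 7 tested GBP genes, GTPases known mainly as targets of interferon gamma, were all higher in each tumor group than in tubule cells, and none changed sign under any scaling. Of all tested genes 48.2%, 54% and 52.2% were higher in primary tumors, metastases and allograft tumors. Gbp2 had 35.04, 9.52 and 14.05 FPKM in primary tumors, 35.5, 31.4 and 35.2 in metastases and 71.7, 29.9 and 23.2 in allograft tumors, against 2.46, 1.5 and 2.33 in proximal tubule cells. Gbp2, which coats membranes of intracellular pathogens, changed by 2.54 ± 0.47 in primary tumors (adjusted p = 0.0013), 3.51 ± 0.47 in metastases (adjusted p = 9.27e-05) and 3.63 ± 0.47 in allograft tumors (adjusted p = 6.43e-05). Allograft tumor 1 held the highest Gbp2 level of the 12 libraries, while the 3 metastases lay close together. Gbp2b had 42.5, 12.9 and 20.2 FPKM in primary tumors, 32.3, 37.3 and 41.7 in metastases and 27.7, 10.2 and 13.7 in allograft tumors, against 4.71, 3.201 and 3.43 in proximal tubule cells. Gbp2b changed by 2.31 ± 0.42, 3.00 ± 0.42 and 1.83 ± 0.42 in primary tumors, metastases and allograft tumors, and Gbp2 and Gbp2b are similar enough that fragments may be divided between them. Gbp3, Gbp7 and Gbp9 ranged from 7.28 to 38.98 FPKM in tumors, against 1.16 to 3.23 FPKM in tubule cells. Gbp8 was listed at 0 in 2 of the 3 tubule libraries and had 3.796 to 8.43 FPKM in primary tumors, 3.86 to 5.18 in metastases and 3.85 to 11.5 in allograft tumors. Gbp4, Gbp8 and Gbp9 overlap each other on 1 strand in the annotation, so their levels are not independent.

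All 7 IFITM genes were higher in each tumor group than in tubule cells, although Ifitm7 changed sign under quantile normalization in primary tumors and metastases and Ifitm5 in primary tumors. The background was 48.2%, 54% and 52.2% of all genes higher in primary tumors, metastases and allograft tumors. Ifitm3 and Ifitm2, small membrane proteins that restrict entry of enveloped viruses, were the most abundant genes of the whole set. Ifitm3 had 401, 89.4 and 129.8 FPKM in primary tumors, 371, 513 and 484 in metastases and 177, 245 and 218 in allograft tumors, against 20.01, 15.8 and 8.75 in proximal tubule cells. Ifitm3 changed by 3.48 ± 0.48 in primary tumors (adjusted p = 0.000258), 4.91 ± 0.48 in metastases (adjusted p = 1.50e-05) and 3.81 ± 0.48 in allograft tumors (adjusted p = 5.70e-05), each held under all 4 scalings. Ifitm2 had 319, 149 and 139.5 FPKM in primary tumors, 324, 309 and 333 in metastases and 600.3, 498 and 279 in allograft tumors, against 65.1, 75.6 and 74.9 in proximal tubule cells. Unlike most of the set, Ifitm2 was already at 65.1 FPKM or more in every tubule library and was highest in allograft tumors. It changed by 1.38 ± 0.34, 2.15 ± 0.34 and 2.59 ± 0.34 in primary tumors, metastases and allograft tumors, of which the primary tumor call was lost under TPM and median-of-ratios scaling. Ifitm1 had 48.8, 11.2 and 36.1 FPKM in primary tumors, 45.01, 62.8 and 61.2 in metastases and 12.96, 21.4 and 43.5 in allograft tumors, against 0, 0 and 0 in proximal tubule cells. Ifitm1 and Ifitm6 were listed at 0 in all 3 tubule libraries, so no fold is given. Ifitm6 had 1.37 to 5.73 FPKM in primary tumors, 4.25 to 17.3 in metastases and 3.43 to 7.06 in allograft tumors.

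The IRF genes, which encode transcription factors that bind ISRE-like sites, did not all move the same way. In primary tumors 8 of 9 were higher, in metastases 7 were higher and 1 lower, and in allograft tumors 6 were higher and 2 lower. Of all genes 48.2%, 54% and 52.2% were higher and 4.9%, 14.4% and 16.9% lower, so the allograft counts are near the background. Irf3 changed sign under scaling in each comparison and Irf4 in metastases. Irf7 had 71.01, 7.49 and 10.96 FPKM in primary tumors, 39.3, 49.99 and 44.2 in metastases and 28.1, 22.3 and 8.07 in allograft tumors, against 3.03, 2.79 and 2.04 in proximal tubule cells. Irf7, which drives type I interferon genes and is itself induced by interferon, changed by 2.43 ± 0.69, 3.65 ± 0.69 and 2.35 ± 0.69 in primary tumors, metastases and allograft tumors, with primary tumors 2 and 3 and allograft tumor 3 well below the rest. Irf1 had 43.9, 22.9 and 31.9 FPKM in primary tumors, 49.6, 47.6 and 53.4 in metastases and 57.2, 43.8 and 46.6 in allograft tumors, against 13.02, 7.16 and 8.35 in proximal tubule cells. Irf1, a target of interferon gamma and other cytokines with a GAS core match in its window, was steadier between tumors and changed by 1.68 ± 0.25, 2.32 ± 0.25 and 2.29 ± 0.25 in the same order. Irf5 and Irf8, factors prominent in myeloid cells, had 10.1 to 23.8 and 14.6 to 25.9 FPKM in primary tumors, 21.6 to 23.1 and 21.7 to 22.4 in metastases and 11.1 to 38.7 and 12.8 to 40.2 in allograft tumors, against 0.957 to 1.67 and 3.29 to 4.65 in tubule cells. Irf9, the DNA-binding partner of STAT proteins in the complex named above, had 11.7 to 32.6 FPKM in primary tumors, 25.6 to 30.5 in metastases and 11.9 to 21.4 in allograft tumors, against 4.08 to 6.42 in tubule cells.

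Irf2, which can repress interferon genes and was singled out after its values were seen, had 16.5, 9.02 and 15.6 FPKM in primary tumors, 12.7, 12.97 and 15.5 in metastases and 3.26, 4.94 and 6.43 in allograft tumors, against 13.1, 11.7 and 9.84 in proximal tubule cells. The allograft tumors lay below every other library, at -1.12 ± 0.26 against tubule cells (adjusted p = 0.00261), -1.32 ± 0.26 against primary tumors (adjusted p = 0.00276) and -1.36 ± 0.26 against metastases (adjusted p = 0.00388), each held under all 4 scalings.

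Among families of more than 1 gene, the STAT genes had the smallest median changes against tubule cells. In primary tumors 5 of 7 were higher, in metastases 5 and in allograft tumors 4, beside 48.2%, 54% and 52.2% of all genes, so the allograft count is near the background, with Stat6 changing sign under TPM in each and Stat2 in primary tumors. Rescaling to TPM also turned the family's median negative in primary tumors (-0.06) and allograft tumors (-0.54). Stat3 had 43.01, 28.4 and 34.7 FPKM in primary tumors, 47.5, 49.9 and 49.3 in metastases and 36.3, 45.9 and 24.5 in allograft tumors, against 20.5, 12.6 and 12.2 in proximal tubule cells. Stat3, which carries signals of the interleukin 6 family, changed by 1.19 ± 0.26, 1.67 ± 0.26 and 1.17 ± 0.26, with no primary or allograft call held under any other scaling, the metastasis call lost under TPM and the allograft change at -0.18 under TPM. Stat4, best known from T and NK cells, was listed at 0 in 2 of 3 tubule libraries and had 1.82 to 3.47 FPKM in primary tumors, 2.94 to 5.56 in metastases and 0.674 to 2.29 in allograft tumors. Stat5a and Stat5b, transducers of growth hormone and other cytokines, were called in no tumor against tubule comparison. Stat3 and Stat5a overlap on opposite strands, as do Irf5 and Tnpo3, Irf7 and Phrf1, and Irf3 and Bcl2l12. The sources used here do not say whether counting used strand, so reads in these overlaps cannot be told apart.

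Scaling also decided further calls against tubule cells among the genes given by library. In primary tumors, TPM ended those of Irf1, Irf7, Isg20 and Ifit3b, and quantile normalization ended those of Ifit1, Ifit1bl1, Ifit3b, Oas1a, Oasl2, Irf7, Isg20 and Mx1. In allograft tumors, TPM and quantile normalization each ended those of Ifit1, Oasl2, Gbp2b and Irf7, and scaling without the 50 most abundant genes also ended that of Irf7. In metastases none of these calls was lost under scaling apart from those of Mx2 and Stat3 given above.

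**Figure D4:**
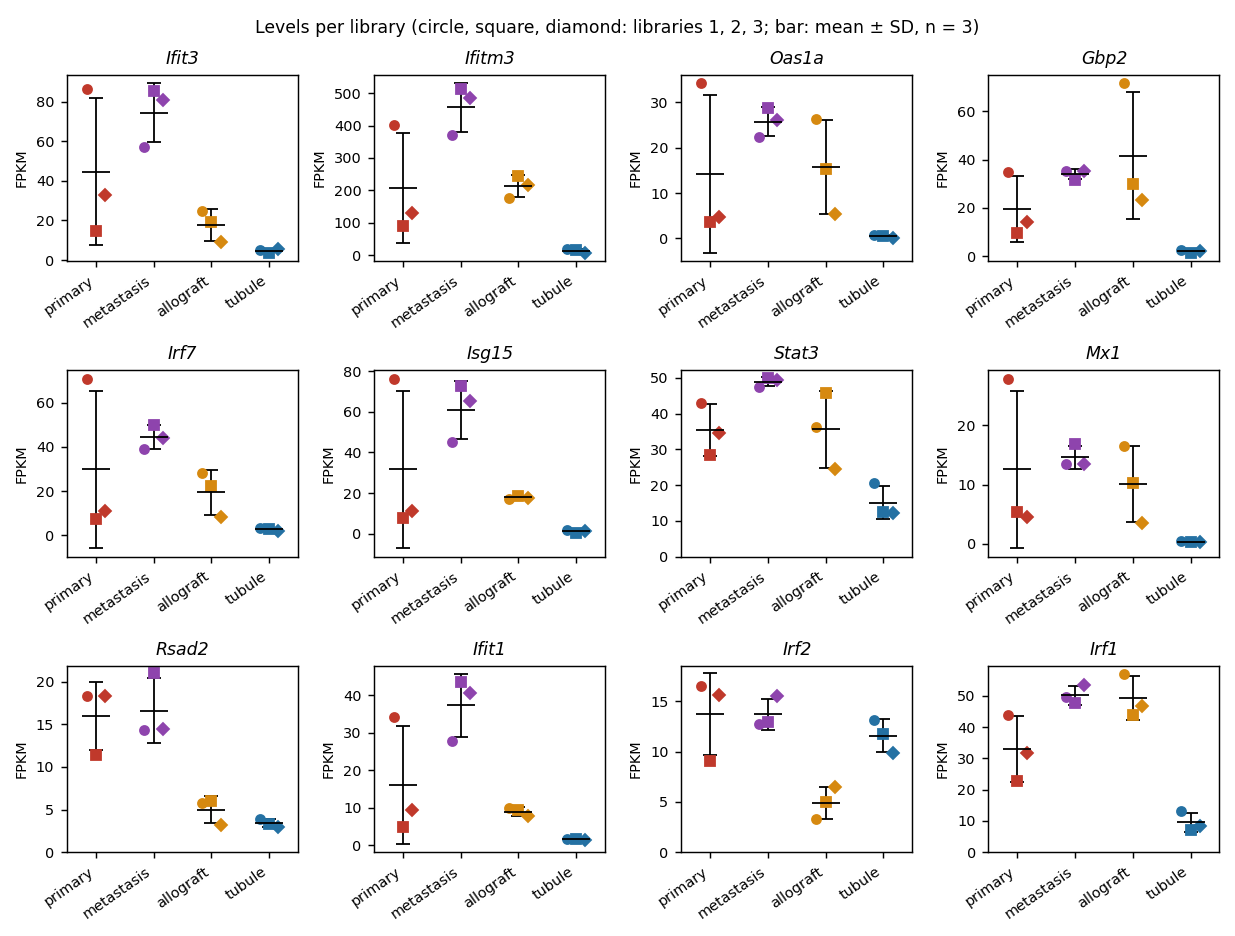
FPKM per library (vertical axes, scaled separately) of 12 interferon family genes in primary tumors, metastases, allograft tumors and tubule cells; bars are the mean ± SD of 3 libraries. Primary tumor 1 (circle) stands above tumors 2 and 3 for Ifit3, Ifitm3, Oas1a, Irf7, Isg15 and Mx1, and Rsad2 and Irf2 are low in allograft tumors.

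The 3 primary tumors did not form one level. Primary tumor 1 was the highest of its group in 40 of the 49 genes, where it was highest in 36.7% of all tested genes, and tumor 2 was the lowest in 35 of the 49, where it was lowest in 34% of all genes. On the log2 scale tumor 1 exceeded the mean of tumors 2 and 3 by a median of 1.11 over the 49 genes, against -0.01 over all 16313. The excess was above 1 in 26 of the 49, against 1722 of all genes. The values of Oas1a, Irf7, Isg15 and Mx1 given above show the gap. Exceptions included Oas3, Ifit1bl2, Irf3 and Stat5b, highest in tumor 2. Tumor 1 also had macrophage and myeloid markers at 2915 FPKM, against 423 and 590.0 in tumors 2 and 3, and fewer proximal tubule transcripts. Fibroblast markers were at 881, 142 and 278 FPKM in tumors 1, 2 and 3, plasmacytoid dendritic markers at 173, 55.2 and 91.6 FPKM and neutrophil markers at 69.9, 19.04 and 15.96 FPKM, each likewise highest in tumor 1. The plasmacytoid dendritic list holds Bst2, itself an interferon-induced gene, so its sum is not independent of the interferon genes. T and NK markers were alike in the 3 tumors, at 51.6, 46.97 and 67.9 FPKM, and B and plasma cell markers ran the other way, at 123.2, 308 and 454 FPKM. Xist, expressed from the inactive X chromosome of females, was at 163, 0.323 and 0.374 FPKM, so tumor 1 also differed from the others in sex. The part of these differences in the result was not tested.

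**Figure D5:**
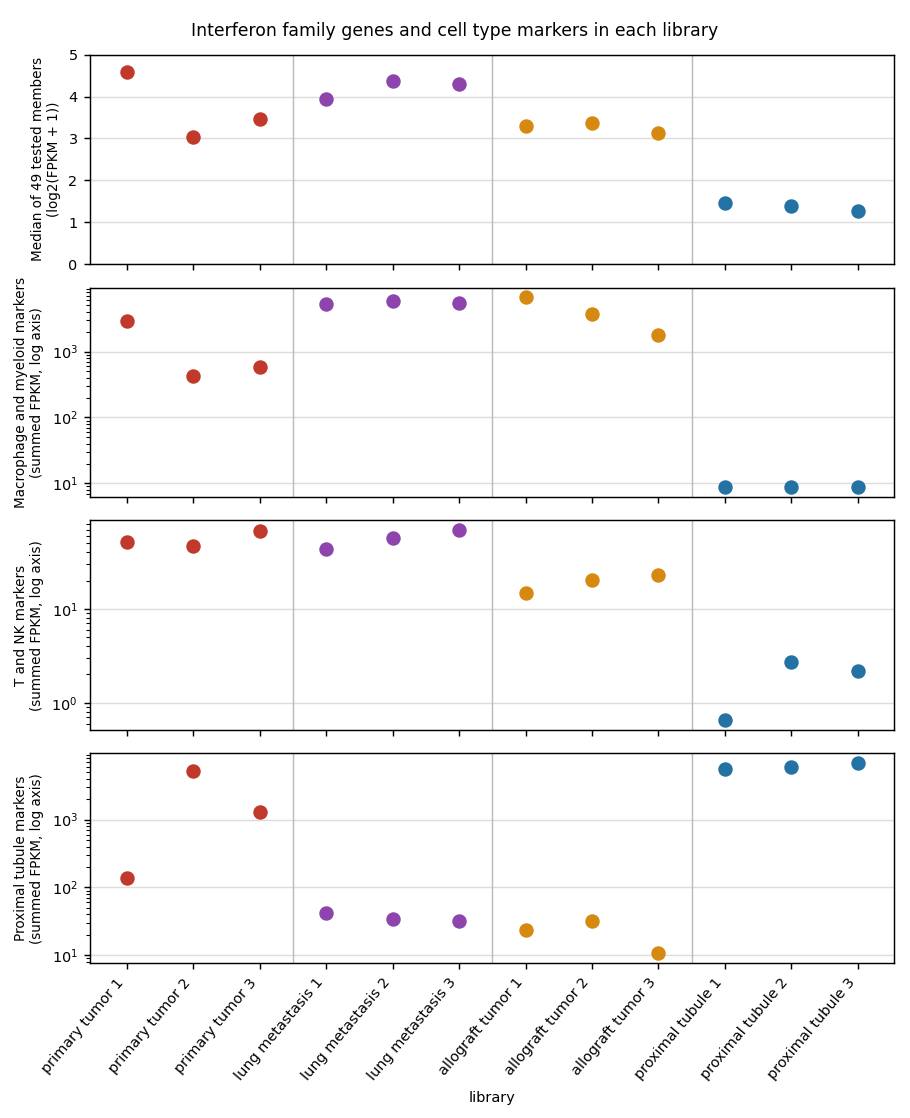
Per library (horizontal axis), from the top: the median log2(FPKM + 1) of the 49 tested interferon family genes, and the summed FPKM of macrophage and myeloid, T and NK, and proximal tubule markers on log axes. Primary tumor 1 is above tumors 2 and 3 in the top panel (4.59 against 3.04 and 3.47) and in the macrophage panel and below them in the tubule panel, and the tubule libraries are lowest in the top 3 panels.

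Metastases were set against primary tumors to ask whether the genes differed by site in mice of the same genotype. Site and sex cannot be told apart for primary tumors 2 and 3, which were male by Xist and Ddx3y, while the metastases were female. Only 2 of the 49 genes were higher in metastases, Isg20 and Ifit1bl1, and 1 was lower, where 11.3% of all tested genes were higher and 9.59% were lower. The genes' median change was 0.60, against 0.01 for all genes. The libraries did not overlap for 5 genes higher and 2 lower in metastases, beside 21.9% and 20.1% of all genes. Isg20 was higher by 1.94 ± 0.46 (adjusted p = 0.0157) and Ifit1bl1 by 1.27 ± 0.31 (adjusted p = 0.0174), each held under all 4 scalings. The call of Isg20 was lost with a pseudocount of 0.1, with only the 2 groups fitted and without primary tumor 2 or 3 or any 1 of the metastases, and that of Ifit1bl1 under the same settings and without primary tumor 2, primary tumor 3, metastasis 2 or metastasis 3. Ifitm3 (1.43 ± 0.48, adjusted p = 0.058) and Ifit1 (1.54 ± 0.50, adjusted p = 0.053) missed the threshold. The count moved with single libraries, as did calls over all genes. Without primary tumor 1, 28 of the genes were higher in metastases, beside 20.4% of all genes, and without primary tumor 2 or primary tumor 3 none was, beside 6.17% and 5.95%. Lung markers were present in the metastases, as given above. Neutrophil markers summed to 221 to 440.1 FPKM in metastases and 15.96 to 69.9 in primary tumors with 4 of 5 tested higher, and endothelial markers to 291 to 488 and 184 to 225 FPKM with 4 of 6 higher and 1 lower. The part of these cells in the differences was not tested.

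Allograft tumors against primary tumors set transplanted Lats1-/-;Lats2-/- cells in NOD/scid hosts beside tumors that arose in place. Of the 49 genes 2 were higher, Ifitm2 and Ifitm7, and 10 were lower, where 20.5% of all tested genes were higher and 21.1% were lower, and the median change was -0.06 against -0.02 for all genes. Among the 10 were Ifit3b, Oas3, Gbp4, Irf2, Irf4 and Rsad2. Rsad2 fell by 1.51 ± 0.26 (adjusted p = 0.00144) and Ifit3b by 1.34 ± 0.46 (adjusted p = 0.0382). The libraries did not overlap for 1 gene higher and 10 lower, beside 21.2% and 22.5% of all genes. Calls in either direction as deposited took in 41.6% of all genes. All 4 scalings kept 6 of these 12, among them those of Gbp4, Irf2, Irf4 and Rsad2, and the share kept over all genes was not computed. The call of Ifit3b was lost without any 1 of the 6 libraries except primary tumor 2, with a change of -0.76 without primary tumor 1. Ifitm2 rose by 1.21 ± 0.34 (adjusted p = 0.0163), a call lost under TPM, quantile normalization and scaling without the 50 most abundant genes, and without allograft tumor 1 or 2 or primary tumor 2 or 3. Without primary tumor 1, 12 genes were higher in allograft tumors, a share near the 24.3% of all genes called higher there, and without primary tumor 3 none was, beside 14.96% of all genes. Irf4, a factor of lymphocytes and plasma cells, had 0.331 to 0.874 FPKM in allograft tumors, against 2.29 to 3.34 in primary tumors, beside B and plasma cell markers at 10.01 to 59.6 and 123.2 to 454 FPKM. All 8 proximal tubule, 5 of 9 tested T and NK and 3 of 6 endothelial markers were also lower in allograft tumors. By contrast 6 of 11 macrophage and myeloid markers were higher, as were 4 of 6 fibroblast markers, with 1 lower. The part of these cells in the result was not tested.

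Allograft tumors were lower than metastases for 14 of the 49 genes and higher for none, where 13.3% of all tested genes were lower and 10.4% were higher. The median change was -0.69, against 0.03 for all genes, and lay at -0.84 to -0.72 relative to the all-gene median under the 4 scalings. In 27 of the 49 every allograft library lay below every metastasis and in 0 above, as in 23.6% and 24.8% of all genes. The IFIT genes held 5 of the 14. Ifit3 fell by 2.08 ± 0.54 (adjusted p = 0.0182), Ifit1bl1 by 2.06 ± 0.31 (adjusted p = 0.000957), Ifit1 by 1.92 ± 0.50 (adjusted p = 0.0199) and Ifit3b by 1.89 ± 0.46 (adjusted p = 0.0141). Rsad2 fell by 1.57 ± 0.26 (adjusted p = 0.00177). Ifit1bl2, Oas1b, Gbp4, Irf2, Stat2 and Stat4 were also among the 14, while Irf9 (-0.77 ± 0.34) was not called. All 4 scalings kept 10 of the 14. Calls in either direction as deposited took in 23.7% of all genes, and the share of those kept by all 4 was not computed. Leaving out metastasis 2 or metastasis 3 left 3 genes lower each time, beside 7.75% and 7.39% of all genes, and leaving out allograft tumor 3, the lowest of its group in 34 of the 49, left 9, beside 12.9%. Ifit1, Ifit3 and Ifit3b were among those lost without either metastasis. Sex was not matched, with Ddx3y at 8.94 to 22.8 FPKM in allograft tumors and 0.26 FPKM or less in metastases, and its part was not tested. Macrophage and myeloid markers were at 1769.8 to 6706 FPKM in allograft tumors and 5172 to 5751 in metastases with 0 of 11 called, and 7 of 9 tested T and NK markers were lower in allograft tumors. All 7 B and plasma, all 6 endothelial, 3 of 5 tested neutrophil and all 6 lung epithelium markers were lower in allograft tumors too, with median changes of -2.66, -2.15, -3.84 and -8.63. Fibroblast markers went mostly the other way, with 3 of 6 higher in allograft tumors, 1 lower and a median change of 1.83. The part of these cells in the result was not tested.

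Upstream of these families, the interferons themselves were low. Of 21 ligand genes in the table, Ifnk alone passed the filter, and Ifnb1 reached at most 0.20 FPKM, Ifng 0.71 FPKM and Ifnz 1.00 FPKM in any library. Ifnk had 1.42, 1.57 and 1.997 FPKM in primary tumors, 0.585, 0.905 and 1.17 in metastases and 0.186, 0.172 and 0.405 in allograft tumors, against 0, 0 and 0 in proximal tubule cells. Ifnk, a type I interferon of epithelium, was higher in primary tumors and metastases than in tubule cells, where it was listed at 0, so no fold is given. The call of metastases was not kept under all 4 scalings. Of 9 receptor and kinase genes, 8 were higher in primary tumors, 8 in metastases and 6 in allograft tumors than in tubule cells, beside 48.2%, 54% and 52.2% of all genes, and none was lower. Ifngr1 had 89.2, 39.7 and 33.6 FPKM in primary tumors, 91.6, 80.9 and 87.8 in metastases and 93.1, 72.2 and 67.8 in allograft tumors, against 12.3, 10.2 and 9.36 in proximal tubule cells. Ifngr1, the ligand-binding chain of the interferon gamma receptor, changed by 2.12 ± 0.31, 2.92 ± 0.31 and 2.75 ± 0.31 and kept each call under all 4 scalings, which only 2 of the list's 8 primary tumor calls did. Ifnar1 and Ifnar2, the type I receptor chains, had 28.6 to 44.2 and 29.3 to 50.9 FPKM in primary tumors, 43.6 to 44.8 and 50.6 to 53.1 in metastases and 37.2 to 40.97 and 36.3 to 71.4 in allograft tumors, against 15.1 to 16.2 and 12.4 to 16.8 in tubule cells.

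Sensors and adaptors of foreign nucleic acid formed a list of 16. In primary tumors 14 were higher and 1 lower, in metastases 14 higher and 2 lower, and in allograft tumors 10 higher and 2 lower than in tubule cells. Of all genes 48.2%, 54% and 52.2% were higher and 4.9%, 14.4% and 16.9% lower. The allograft counts, and the counts lower in primary tumors and metastases, are near that background. Tmem173 had 26.4, 6.499 and 10.5 FPKM in primary tumors, 24.6, 23.6 and 21.8 in metastases and 30.9, 21.5 and 16.2 in allograft tumors, against 0.094, 0.429 and 0.079 in proximal tubule cells. Tmem173 encodes STING, the adaptor of DNA sensing, and changed by 3.48 ± 0.40, 4.35 ± 0.40 and 4.28 ± 0.40 in primary tumors, metastases and allograft tumors. Zbp1 had 39.7, 6.32 and 7.17 FPKM in primary tumors, 20.8, 32.4 and 33.8 in metastases and 32.4, 20.9 and 13.7 in allograft tumors, against 0.208, 0 and 0.574 in proximal tubule cells. Zbp1, a sensor of Z-form nucleic acid, changed by 3.44 ± 0.58, 4.57 ± 0.58 and 4.16 ± 0.58, and all calls of both genes held under the 4 scalings. Eif2ak2, the RNA-activated kinase PKR and the most abundant of the list, had 21.4 to 38.6 FPKM in primary tumors, 29.6 to 33.5 in metastases and 26.9 to 33.9 in allograft tumors, against 7.49 to 9.12 in tubule cells. Ticam1 and Mavs, also adaptors, went the other way in metastases and allograft tumors. Ticam1 had 3.38, 5.76 and 5.67 FPKM in primary tumors, 3.79, 3.11 and 2.57 in metastases and 1.81, 2.62 and 2.45 in allograft tumors, against 7.83, 7.53 and 7.97 in proximal tubule cells. Ticam1, the TRIF adaptor of Toll-like receptor 3, fell by 0.59 ± 0.20, 1.09 ± 0.20 and 1.42 ± 0.20. Mavs had 13.3, 26.8 and 31.1 FPKM in primary tumors, 8.34, 8.65 and 8.38 in metastases and 7.57, 9.73 and 7.498 in allograft tumors, against 19.6, 25.2 and 20.2 in proximal tubule cells. Mavs, the mitochondrial adaptor of RNA helicase sensors, fell by 1.25 ± 0.26 in metastases (adjusted p = 0.00174) and by 1.29 ± 0.26 in allograft tumors (adjusted p = 0.00135), and in primary tumors it was high in the 2 tumors with most tubule markers and lower in tumor 1.

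Genes that restrain the response numbered 10. In primary tumors 7 were higher, in metastases 8 and in allograft tumors 7, beside the same 48.2%, 54% and 52.2% of all genes. In allograft tumors 1, Cish, was lower, beside 16.9% of all genes. Usp18 had 21.3, 3.27 and 4.25 FPKM in primary tumors, 16.1, 24.7 and 25 in metastases and 11.2, 7.41 and 6.404 in allograft tumors, against 1.197, 0.369 and 0.500 in proximal tubule cells. Usp18, which removes Isg15 from proteins and dampens the type I receptor, changed by 2.26 ± 0.53, 3.77 ± 0.53 and 2.47 ± 0.53 and stood far higher in primary tumor 1 than in primary tumors 2 and 3. Socs3 had 23.01, 4.67 and 4.93 FPKM in primary tumors, 47.4, 52.7 and 55.7 in metastases and 52.8, 52.7 and 18.3 in allograft tumors, against 5.97, 4.899 and 3.94 in proximal tubule cells. Socs3, an inhibitor of JAK signalling induced mainly through Stat3, rose by 3.17 ± 0.54 in metastases and 2.70 ± 0.54 in allograft tumors, and was not called in primary tumors (0.66 ± 0.54, adjusted p = 0.319). Quantile normalization ended the calls of Usp18 in primary and allograft tumors, and TPM that of Socs3 in allograft tumors. Samhd1, a nucleotide hydrolase and the most abundant of the list, had 20.7 to 60.4 FPKM in primary tumors, 61.3 to 69.3 in metastases and 43.4 to 51.6 in allograft tumors, against 6.56 to 8.75 in tubule cells. Cish had 5.695, 9.74 and 10.2 FPKM in primary tumors, 6.55, 5.35 and 5.51 in metastases and 0.354, 1.53 and 1.03 in allograft tumors, against 4.82, 4.06 and 8.02 in proximal tubule cells. Cish, a target and inhibitor of Stat5 signalling, fell by 1.75 ± 0.30 in allograft tumors against tubule cells (adjusted p = 0.000392). Stat5b was lower in allograft tumors than in metastases and primary tumors but was not called against tubule cells. A link between the 2 genes was not tested.

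Outside the 54 genes, 37 other genes known to be induced by interferon were tested. In primary tumors 33 were higher than in tubule cells, in metastases 35 and in allograft tumors 29, with 3 lower in allograft tumors. Of all genes 48.2%, 54% and 52.2% were higher, and 16.9% were lower in allograft tumors. The list's medians were 2.56, 3.13 and 2.29 against all-gene medians of 0.59, 0.68 and 0.66. In allograft tumors against metastases 9 of the 37 were lower and none was higher, beside 13.3% and 10.4% of all genes. Of 10 tested genes linked mainly to interferon gamma, 8 were higher in primary tumors, 10 in metastases and 8 in allograft tumors than in tubule cells, and none was lower. The same shares of all genes stand beside these counts. Psmb8 had 74.7, 23.3 and 27.4 FPKM in primary tumors, 80.8, 83.8 and 82.2 in metastases and 131, 68.4 and 21.7 in allograft tumors, against 4.23, 1.79 and 2.53 in proximal tubule cells. Psmb8, a subunit of the immunoproteasome and the most abundant of that list, changed by 3.33 ± 0.59, 4.48 ± 0.59 and 3.99 ± 0.59 in primary tumors, metastases and allograft tumors, and the 3 calls held under all 4 scalings. Ido1, a tryptophan-degrading enzyme, stayed at or under 0.82 FPKM everywhere and was not tested.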

How the data were processed

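RNA of 12 mouse libraries in 4 groups of 3 was measured, grouped by the labels. The deposited table gives FPKM per gene, which the authors computed; bcl2fastq 2.17.1.14, Salmon and the builds GRCm38 and mm10 were used per the submitters' processing notes. The sources used here do not give the gene lengths, library type or strandedness. Of 24432 identifiers, 24189 had a symbol in GENCODE M21. Values were used as deposited. The 16313 genes that reached 1 FPKM in 3 or more libraries were kept, and log2(FPKM + 1) was fitted with limma 3.58.1 in R 4.3.3, with all 4 groups together, a mean-variance trend and no covariates. P-values are two-sided and adjusted by Benjamini-Hochberg over all tested genes in each comparison, with calls made under 0.05. The log2(FPKM + 1) scale understates changes of low genes. The procedure was tested on simulated data. These took the levels and spread of the metastases for all 12 libraries. They therefore do not cover groups of unequal spread or a shift of all genes as in the tubule libraries.

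Depth, not stated, was estimated from the FPKM that 1 fragment adds to genes with 1 transcript. The tubule libraries were shallower and their columns summed to 706093 to 738052 FPKM, against 1.35e+06 to 2.53e+06 in tumors. No interval was computed, since the values hold no counts.

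Values in every library are given for the 2 members with the highest mean in each family, for all ISG, MX and RSAD2 genes, and in each comparison for the 3 called genes of largest change whose higher group averaged 5 FPKM or more. From each pathway list, the most abundant gene and the largest called changes in each direction against tubule cells are given. The values of 2 members are not reported here by gene, and counts and medians include them. Members follow from their symbols alone, but the families and the pathway and marker lists were proposed with earlier results of these data known. Alternatives were 4 scalings (TPM, median of ratios, quantile normalization, and the library sum without the 50 most abundant genes), pseudocounts of 0.1 and 5, no filter or a filter of 5 FPKM, array weights, only the 2 groups compared, a replicate block, leaving out each library, and leaving out primary tumors 2 and 3. Sequences are from RefSeq on GRCm38.p6, searched with Python 3.11.15. The labels do not pair samples by replicate number. Deviations of same-numbered libraries from their group means correlated between -0.04 and 0.10 over 18 pairs of groups and numbers, which cannot exclude a shared animal.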

Additional observations from a re-analysis of the deposited data

How the results depend on the processing

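Counts are of the 49 interferon genes. Against proximal tubule cells, TPM left 27 higher and quantile normalization 18 higher and 1 lower in primary tumors (45 and 0 as deposited). In metastases (44 and 1), the count lower was 0 with a pseudocount of 0.1 and with no filter, 2 under TPM, 3 under quantile normalization, and 0 without any 1 library. In allograft tumors (38 and 2), TPM gave 21 higher and 8 lower, quantile normalization 19 and 8, and median-of-ratios scaling and scaling without the 50 most abundant genes 4 lower each. For metastases against primary tumors (2 and 1), the count higher was 0 with a pseudocount of 0.1, with only the 2 groups and without primary tumors 2 and 3, 33 with array weights, and 0 to 28 leaving out 1 library; the count lower was 2 with a pseudocount of 5 and under quantile normalization and 3 with array weights. For allograft against primary tumors (2 and 10), the count higher was 1 with a pseudocount of 0.1, with a filter of 5 FPKM and under quantile normalization, 0 under TPM, without the 50 most abundant genes, with only the 2 groups and without primary tumors 2 and 3, 9 with array weights, and 0 to 12 leaving out 1 library; the count lower was 5 with only the 2 groups, 16 without primary tumors 2 and 3, and 6 to 11 leaving out 1 library. For allograft tumors against metastases (0 and 14), the count higher was 1 under quantile normalization, 2 with array weights and 0 to 1 leaving out 1 library, and the count lower was 28 with array weights and 3 to 12 leaving out 1 library. Calls over all genes moved with many of these settings. In metastases against primary tumors 11.3% of all genes were higher as deposited, 32.2% with array weights and 4.37% with only the 2 groups. In allograft tumors against tubule cells 16.9% were lower as deposited, 42.3% under TPM and 30.5% under quantile normalization. In allograft tumors against metastases 13.3% were lower as deposited and 20.1% with array weights. Where leaving out primary tumors 2 and 3 left 1 tumor, that tumor is assumed to vary like the other groups.

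Over 65 calls of named genes, 1032 of 1129 alternatives kept the call, 95 lost it and 2 changed sign, both in allograft tumors against tubule cells: Stat3 (-0.18) under TPM and Ifit1bl1 (-0.15) under quantile normalization. The cause was not tested. No same-numbered pair correlated above 0.1, but tissue and cell content also set these deviations, so the check cannot show whether libraries shared an animal. By Xist and Ddx3y, primary tumors 2 and 3 differed in sex from metastases 2 and 3. With the replicate block, 4 genes were higher in allograft than in primary tumors against 2 without it, and the calls of Ifit1bl1 in allograft tumors against tubule cells and of Ifit3b in allograft against primary tumors were lost. Depth limits the comparisons of genes under 1 FPKM, most in the shallower tubule libraries.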

Other observations

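Some of the other interferon-induced genes had patterns unlike most of that list. Of its 3 genes lower in allograft tumors than in tubule cells, Samd9l is given below, Cmpk2 fell by 1.006 ± 0.27 (adjusted p = 0.00677) and Trim25 by 0.88 ± 0.22 (adjusted p = 0.00396), all 3 also under each of the 4 scalings. Ifi27l2a had 243, 16.1 and 20.6 FPKM in primary tumors, 115, 159 and 183 in metastases and 924, 1317 and 127 in allograft tumors, against 0, 1.304 and 0 in proximal tubule cells. Ifi27l2a, a small mitochondrial protein and the most abundant gene of the list, was thus highest in allograft tumors 1 and 2, at 3.58 ± 1.04 against primary tumors (adjusted p = 0.0193), and changed by 8.67 ± 1.04 against tubule cells. Ifi44l, chosen after its values were seen, had 45.8, 9.801 and 15.4 FPKM in primary tumors, 11.3, 12.6 and 12.2 in metastases and 0.026, 0 and 0.038 in allograft tumors, against 0, 0 and 0.866 in tubule cells. In allograft tumors Ifi44l fell by 4.31 ± 0.45 against primary tumors (adjusted p = 0.000144) and by 3.67 ± 0.45 against metastases (adjusted p = 0.00027), and both calls held under all 4 scalings. Its neighbour in name, Ifi44, was still read in the allograft tumors, at 6.15, 3.66 and 4.09 FPKM, against 19.9, 28.2 and 25.2 in metastases and 49, 7.39 and 14.3 in primary tumors. Samd9l had 80.7, 81.6 and 59.5 FPKM in primary tumors, 35, 40.04 and 44.6 in metastases and 25.9, 17.8 and 13.2 in allograft tumors, against 38.8, 62.2 and 97.1 in proximal tubule cells. Samd9l, a growth suppressor induced by interferon, was already abundant in tubule cells and fell by 1.70 ± 0.32 in allograft tumors (adjusted p = 0.000835).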
